A study of Drosophila melanogaster with 4 samples.

Results

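The age difference on curcumin food was described between a pool of old Canton-S flies (40 days) and a pool of young Canton-S flies (1 to 3 days), both kept on food with 100 µM curcumin. Canton-S is a wild-type laboratory strain of Drosophila melanogaster, and curcumin is the yellow polyphenol of turmeric. RNA of each pool was hybridised to 1 Affymetrix Drosophila Genome 2.0 array, whose values are log2 MAS5 signals per probe set. A pair of further pools of the same strain and ages, fed the same sucrose and yeast food with ethanol alone (0 µM curcumin), gave 1 array each and is used below only for values set side by side. All 4 pools were labelled as 30 males and 30 females. The members are all probe sets that name a single gene and read log2 5 (a signal of 32) or more on at least 1 of the 2 arrays. This held for 9257 of 13647 such probe sets (67.8%), out of 18769 in all, and they stand for 8743 of 11982 genes. Just inside the limit were CG30268 (5.0019) and CG32212 (5.002), and just outside were CG13474 (4.9999) and CG10104 (4.9977), as the higher deposited log2 value of the 2 arrays. The labels name no dissected tissue. The old flies had up to 40 days on curcumin food and the young flies at most 3, so age and time on the food cannot be told apart.

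Adult flies lose muscle, digestive and respiratory performance as they age, and their immune and stress genes commonly become more active. Muscle contraction rests on sliding actin and myosin filaments that calcium switches on through troponin, and mitochondria feed it with ATP through the respiratory chain. Metallothioneins are small cysteine-rich proteins that bind copper and zinc. Proteins bound for secretion or for the cell surface are threaded into the endoplasmic reticulum (ER), folded there and given sugars in the Golgi apparatus.

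The labelled sex mix was checked against marker genes before the results, and markers of egg production were near background on all 4 arrays. All 18 genes of the chorion and vitelline membrane, the eggshell layers made in the ovary, read below 32 on every array, with Cp36 highest at 26.1. The yolk protein gene Yp1 read 13.4, 11.7, 9.55 and 27.4 on the arrays of young flies without and with curcumin and of old flies without and with it. In the same order Yp2 read 5.73, 5.65, 12.7 and 20.9, the yolk receptor gene yl at most 2.01, and Fad2, a desaturase gene of the female pheromone pathway, between 11.7 and 22.2. The third yolk protein gene, Yp3, was above the limit at 43.6 to 57.9. Of 26 ovary and maternal genes, a broader list that also holds genes used in other tissues, 9 read 32 or more on each array with curcumin, with medians of 15.5 and 15.6 and highest signals of 452 and 490. Male accessory gland markers were high. All 34 genes of the male accessory gland and seminal fluid list read 32 or more in young flies on curcumin food and 33 of 34 in old flies on it, with median signals of 1661 and 2135. The sex peptide gene SP, a seminal fluid signal to the female, read 3805 in young and 2958 in old flies, and the testis tubulin gene betaTub85D read 1122 and 795. Of 39 testis genes 33 and 30 read 32 or more on these arrays, but not all did. The sperm gene dj read 45.9 and 32.6 here and 25.8 and 31.7 in young and old flies without curcumin, and the meiotic arrest genes can (16.2 to 26.8) and nht (13.4 to 39.1) were near or below the limit. Read by these markers, the arrays show little sign of the mature females that the labels give. Neither the reason nor its part in the results below was tested.

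**Figure D1:**
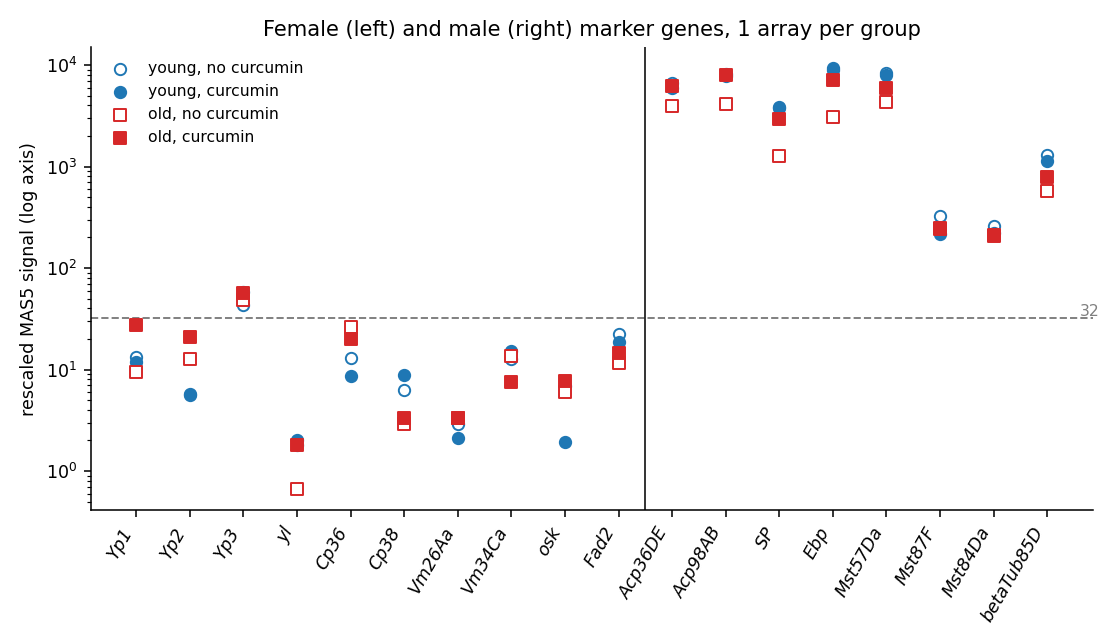
Rescaled MAS5 signal (log axis) of female marker genes on the left and 8 male marker genes on the right, 1 point per array. Of the female markers only Yp3 lies above the dashed limit of 32, whereas the 8 male markers drawn lie above it on all 4 arrays; dj, can and nht, which fall below it on 1 array or more, are not drawn.

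Over all genes the old and young pools on curcumin food were close. A fold could be given for 8717 genes, because 26 of the 8743 were below the limit on both arrays once the arrays had been rescaled. Of these, 8082 read 32 or more on both arrays, 306 in old flies only and 329 in young flies only, and for the last 2 groups the fold is a lower bound against a signal of 32. A gene whose bound is under 2-fold is not counted as past 2-fold, though its difference may be larger. The median log2 difference, old minus young, was 0.0044, with quartiles of -0.27 and 0.28 (bounds taken at their value), and 6572 of the 8082 genes measured on both arrays (81.3%) lay within 1.5-fold. A signal at least 2-fold higher in old flies was found for 254 genes (2.91%), and one at least 2-fold lower for 206 (2.36%), together 5.28%. These shares are the background for each count of list members on curcumin food below. At least 4-fold higher were 21 genes and lower 30, and at least 8-fold higher 4 and lower 8. Of the 2-fold differences 55.2% were upward. Without rescaling this share was 70.7% (352 higher and 146 lower, with the median of all genes at 0.12), and with each array centred on its median it was 49.2% (229 and 236), so no excess in either direction is claimed. With 1 array per group these counts have no replicate check, no p-value is given anywhere, and precision is limited by having so few arrays.

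The only measure of noise within these arrays came from 347 pairs of probe sets for the same gene, each at the limit or above on both arrays. Their log2 differences disagreed by a median of 0.30 and with an SD of 0.51, and 25 pairs (7.2%) disagreed by at least 1. Of the 33 pairs in which either probe set was 2-fold apart, 29 had the same sign and 9 were both past 2-fold. The muscle calcium pump gene SERCA was at least 2-fold lower on both (-1.83 and -2.50), though these lay further apart than the median pair. The formin gene Fhos (-2.26 and -2.55), the integrin gene mys (1.45 and 1.48) and ergic53 (1.13 and 1.14) agreed closely. The titin-like gene sls (-1.57 and 0.47), the heat shock cognate gene Hsc70-1 (-1.93 and -0.24) and the vesicle release gene Cadps (1.13 and -0.12) did not, so their differences depend on the probe set. The share of genes 2-fold lower was 4.54% in the brightest quartile of genes by mean signal, and 1.65%, 1.97% and 1.29% in the others from the dimmest up. The corresponding shares of genes 2-fold higher were 2.02%, 2.48%, 3.76% and 3.40%.

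**Figure D2:**
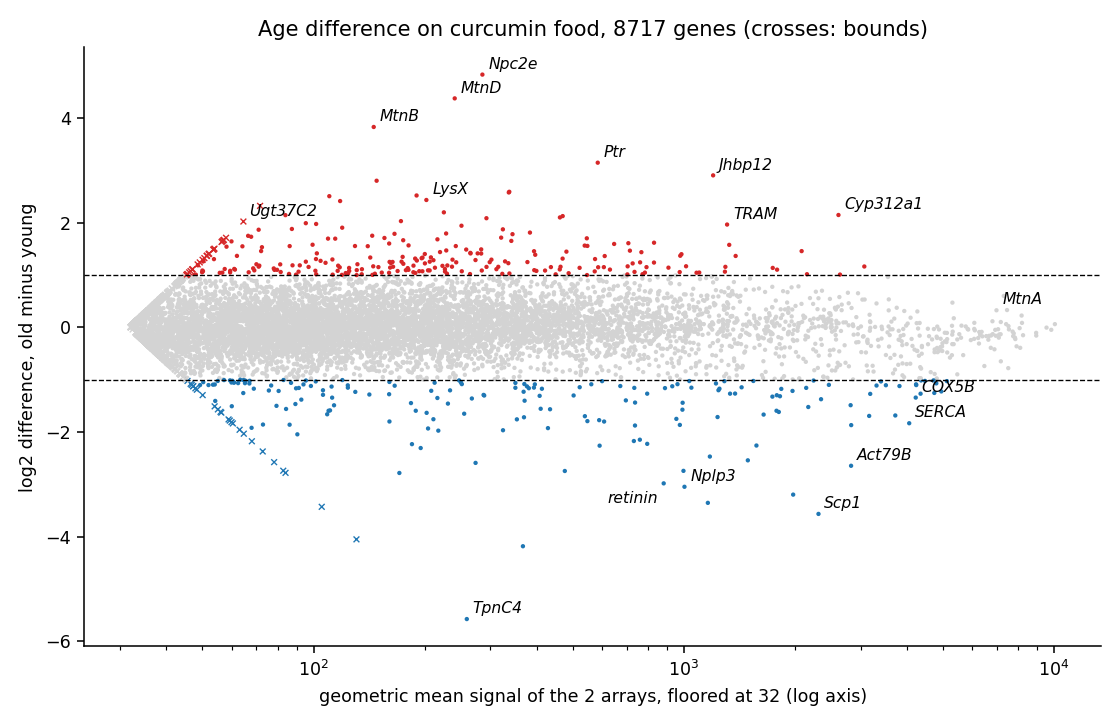
Log2 difference between old and young flies on curcumin food against the geometric mean signal of the 2 arrays (log axis), 1 point per gene for 8717 genes, with dashed lines at 2-fold. Red points are the 254 genes at least 2-fold higher, blue points the 206 at least 2-fold lower, and crosses are lower bounds.

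Muscle genes were lower in old flies on curcumin food. Of 27 described genes of muscle contraction 16 were lower by 2-fold or more, beside 2.36% of all genes, and 0 higher. The median log2 difference was -1.03, beside 0.0044 for all genes. The muscle median was -0.90 without rescaling and -0.84 with quantile normalization. TpnC4, a troponin C that senses calcium in flight muscle, read 1792 in young and 37.5 in old flies, 47.8-fold lower and the largest difference among genes measured on both arrays. With the old signal so close to the limit its size depends on that limit, and the log2 difference of -5.58 became -4.81 with the limit at log2 6. The sarcoplasmic calcium-binding protein gene Scp1 read 7948 and 670, 11.9-fold lower. The actin gene Act79B read 7075 and 1130 (6.26-fold lower), and TpnC41C, another troponin C, read 3591 and 616 (5.83-fold lower). So 3 of the 4 lowest members encode calcium-binding proteins. Below them came the flight muscle thick filament gene fln (-2.15), the flight muscle actin gene Act88F (-1.87), SERCA (-1.83), sls (-1.57) and the muscle LIM protein gene Mlp84B (-1.32). The other probe set of sls gave 0.47, so its place among the 16 depends on the probe set. Near 2-fold were the alpha-actinin gene Actn (-1.16), the tropomyosin gene Tm2 (-1.15), the myosin light chain gene Mlc1 (-1.11), the troponin T gene up (-1.03), the paramyosin gene Prm (-1.02) and the arginine kinase gene Argk1 (-1.01). Of these, Mlc1, up, Prm and Argk1 were under 2-fold without rescaling. At the other end TpnC73F was at -0.13, and Strn-Mlck and the cytoplasmic myosin light chain gene Mlc-c were at 0.15 and 0.20. The other probe set of Strn-Mlck gave -0.96, so its value depends on the probe set. In RNA of pooled flies, fewer cells of a type and less RNA per cell cannot be told apart. Without curcumin the list median was -0.69 (11 of 27 lower by 2-fold or more and 1 higher), and TpnC4 read 481 in young and 34.5 in old flies. Of all described genes with a value without curcumin, 751 of 8561 were at least 2-fold lower and 354 higher, so lower genes were more frequent there than here. The summed signal of the 28 muscle genes on the array was 51789 in young flies without curcumin and 80250 with it. In old flies it was 28937 and 33173. The young array with curcumin was thus the highest, and this was not tested.

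Genes of the respiratory chain were lower as a block. All 56 standard nuclear-encoded subunits of complexes I to V had a negative difference, from -1.76 to -0.14, and 18 were at least 2-fold lower, with a median of -0.95. The medians of the complexes were close to each other. Complex I, which oxidises NADH, had -0.93 over 27 subunits, and complex II, succinate dehydrogenase, had -1.10 over 3. Complex III had -0.90 over 6, cytochrome c oxidase had -0.97 over 9 and ATP synthase had -0.98 over 11. The complex I gene ND-B8 read 387 in young and 114.5 in old flies (3.38-fold lower), and ND-19 read 1634 and 602 (2.72-fold lower). The cytochrome c oxidase gene COX5B read 6729 and 2654 (2.54-fold lower), against 3373 and 2395 without curcumin. The succinate dehydrogenase anchor gene SdhD read 2066 and 858 (2.41-fold lower), against 1450 and 795 without curcumin. ATPsynbeta, the catalytic subunit of ATP synthase, was at -1.22, though its second probe set gave -0.31, and COX7C was at -1.02 with a second probe set at -0.07. The 21 duplicate copies of subunits, many of them used in the testis, had a median of -0.41, and those past 2-fold were COX7AL2 (5689 and 1759) and ATPsynGL (230 and 112). Without rescaling ATPsynGL was under 2-fold. The other diet gave different medians, a contrast that was not tested. Without curcumin the standard subunits stood at -0.65 (2 of 55 lower by 2-fold or more) and the duplicates at -1.26 (16 of 21). Of all described genes 751 of 8561 were that much lower on that diet. The medians of the standard subunits lay between -0.99 and -0.74 over the alternative settings.

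Other energy genes were lower by less. The TCA cycle list stood at a median of -0.45, but at -0.10 with quantile normalization, so the size of its difference depends on the scaling. The isocitrate dehydrogenase gene Idh3a (4947 and 2049, 2.41-fold lower) was the 1 of 13 past 2-fold. Glycolysis and glycogen genes had a median of -0.50, with Pgk (2753 and 1218) and Gapdh1 (6212 and 2892) as the 2 of 18 past it, though Gapdh1 was under 2-fold without rescaling (-0.98) and with quantile normalization (-0.86). The mitochondrial phosphate carrier gene Mpcp1 read 3434 and 717, 4.79-fold lower, whereas the ADP/ATP translocase gene sesB was at -0.78 and the list of mitochondrial import and carriers at -0.26. Mitochondrial ribosomal proteins had a median of -0.27, 57 of 71 below 0 and only mRpL52 at least 2-fold lower (165 and 75.5). Cytosolic ribosomal proteins were at -0.13 with 0 of 34 past 2-fold, a sign that turned with quantile normalization (0.016).

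**Figure D3:**
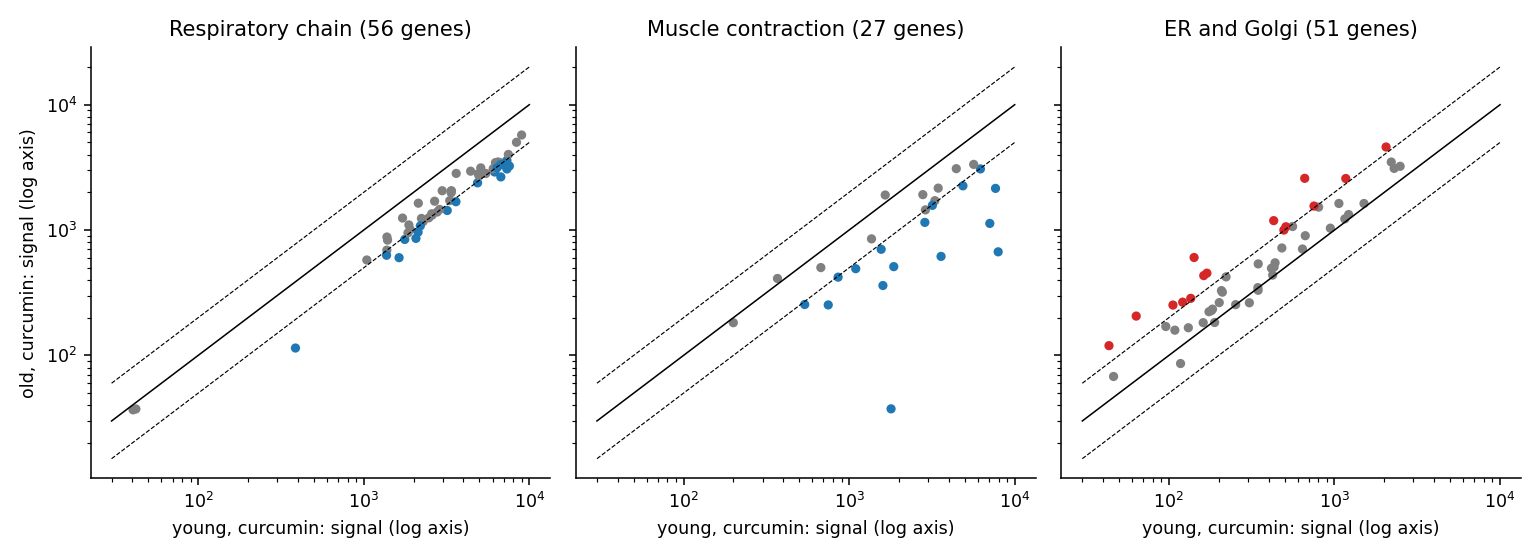
Signal in old against young flies on curcumin food (both axes log) for the respiratory chain, muscle contraction and ER and Golgi lists, 1 point per gene, with the line of equal signal solid and 2-fold dashed. All 56 respiratory chain genes lie below the solid line, 16 of 27 muscle genes lie beyond the lower dashed line, and 47 of 51 ER and Golgi genes lie above the solid line.

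Protease genes of the gut were lower, sugar-digesting and lipase genes were mixed, and some of the lower genes lie next to each other in the genome. Of 12 Jonah genes, which encode serine proteases of the gut, 8 were at least 2-fold lower, beside 2.36% of all genes. The Jonah median was -1.56. Jon44E read 447 in young and 64.9 in old flies (6.89-fold lower), and Jon65Aii read 672 and 111 (6.03-fold lower). The neighbours Jon25Bi, Jon25Bii and Jon25Biii were at -1.67, -1.62 and -1.52, and signal shared between the probes of such similar copies was not tested. Of 9 gut trypsin genes 4 were lower, among them iotaTry (299 and 85.8, 3.48-fold) and zetaTry (192 and 63.8, 3.01-fold). Maltases and amylases had 2 of 12 lower and 1 higher by 2-fold or more, with a median of -0.06, which was 0.06 without rescaling. The lower ones were Amyrel (-1.65), related to the amylases, and Mal-A7 (-1.37), a maltase. Mal-B1, also a maltase gene, was the higher one at 85.0 and 348, 4.09-fold higher. Lipase and lipid droplet genes had 3 of 15 lower and 1 higher, with a median of 0.26. The gut lipase gene mag read 1722 and 368, 4.68-fold lower, and the further lipase genes Lip3 and sxe2 were at -1.05 and -1.01. LpR2, a receptor for lipid-carrying lipoproteins, was at 1.05. Of 5 lysosomal alpha-mannosidase genes 3 were past 2-fold in the lower direction, LManV (1136 and 326), LManVI (671 and 204) and LManIII (316 and 136), and these are neighbours in the genome. LManI was at -0.60 and LManII at 0.04. The mannosidase list was chosen after the values were seen.

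Without curcumin the digestive lists had lower medians still, at -2.60 for the Jonah genes, -1.55 for the trypsins, -1.24 for maltases and amylases (-0.06 here), and -2.33 for the mannosidases. Jon74E read 4721 in young and 1683 in old flies with curcumin and 3146 and 137 without it. The old array without curcumin was therefore the lower of the old arrays for this gene, and the young array with curcumin the higher of the young arrays. These differences between the diets were not tested, since 1 array per group leaves nothing to test them against.

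Part of the cuticle genes were lower, while the genes of chitin handling were mixed. Of 26 described cuticle protein genes, out of 106 on the array, 9 were lower by 2-fold or more and 1 was higher. Of all genes 2.36% were that much lower and 2.91% higher. The cuticle median was -0.46. Cpr92F read 214 in young flies and 0.99 in old flies, at least 6.69-fold lower, and Cpr100A read 166 and 13.1, at least 5.18-fold lower. Cpr62Bc (184 and 44.5, 4.13-fold) and Cpr49Ae (430 and 109, 3.93-fold) were lower with both arrays above the limit. The young array alone brought in 10 of the 26 genes, whose folds are bounds, so the count of lower genes is partly fixed by how members were chosen. Cpr67Fb was the exception, at 430 and 926. Of 26 chitin and peritrophin genes 5 were lower and 1 higher by 2-fold or more, and the median was 0.18, so most members were not lower. The chitin deacetylase genes verm (132 and 34.9) and serp (190 and 67.7) and the chitin-binding genes obst-A (139 and 38.3), Peritrophin-15a (586 and 264) and obst-B (81.2 and 40.4) were the lower ones, while the chitinase gene Cht2 was 2.39-fold higher (61.6 and 147). Vajk2 and Vajk3, named for cuticle-associated proteins, read 124 and 94.9 in young flies and were below the limit in old flies, at least 3.89-fold and 2.97-fold lower. They were the only 2 described of 27 Vajk and Osiris genes. Both entered through the young array alone, so their direction was fixed by how members were chosen. The larval storage protein gene Lsp2 read 1329 in young and 594 in old flies, 2.24-fold lower.

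Metallothionein genes were higher. MtnD read 52.6 in young and 1097 in old flies on curcumin food, 20.8-fold higher, and MtnB read 38.5 and 549, 14.3-fold higher. MtnB in young flies was near the limit, and its log2 difference of 3.83 became 3.10 with the limit at log2 6. MtnC read 298 and 742, 2.49-fold higher. MtnA, near the top of the signal range, read 6232 and 7822, 1.26-fold higher. So 3 of 4 were past 2-fold, and the median was 2.58. Without curcumin MtnD read 92.3 in young and 383 in old flies and MtnB 50.8 and 163, both higher in old flies, while MtnC read 481 and 261, lower. Other metal genes differed little, with 1 of 27 past 2-fold, the zinc transporter gene foi (195 and 415), and a median of 0.26. The manganese and iron transporter gene Mvl was at 0.98 and the transferrin gene Tsf2 at 0.85.

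Among the other genes with the largest upward differences, Npc2e led. It encodes a protein of the sterol-binding Niemann-Pick type C2 family and read 53.4 in young and 1526 in old flies, 28.6-fold higher. Its relatives were not higher together. Npc2d (603 and 228) and Npc2h (1836 and 900) were at least 2-fold lower, Npc2g was at -0.84, and Npc2a and Npc1a were at 0.09 and -0.17. Ptr, a gene of the Patched-related membrane proteins, read 196 and 1744 (8.89-fold higher), against 308 and 883 without curcumin. Jhbp12, of the juvenile hormone-binding protein family, read 437 and 3285 (7.51-fold higher), and the other 14 genes of its list were not past 2-fold. The acetylcholine receptor subunit gene nAChRbeta3 read 137 and 829 (6.04-fold higher), whereas 4 other subunits were between -0.65 and -0.42 and nAChRbeta2 read 40.3 and 21.3, a bound of at least 1.26-fold lower. The lysozyme gene LysX read 86.6 and 469, 5.42-fold higher, with LysP at -0.01 and LysS at 0 to 2 decimals. In each of the Niemann-Pick, juvenile hormone, acetylcholine receptor and lysozyme lists 1 member was far above the others. No relatives of Ptr were listed.

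**Figure D4:**
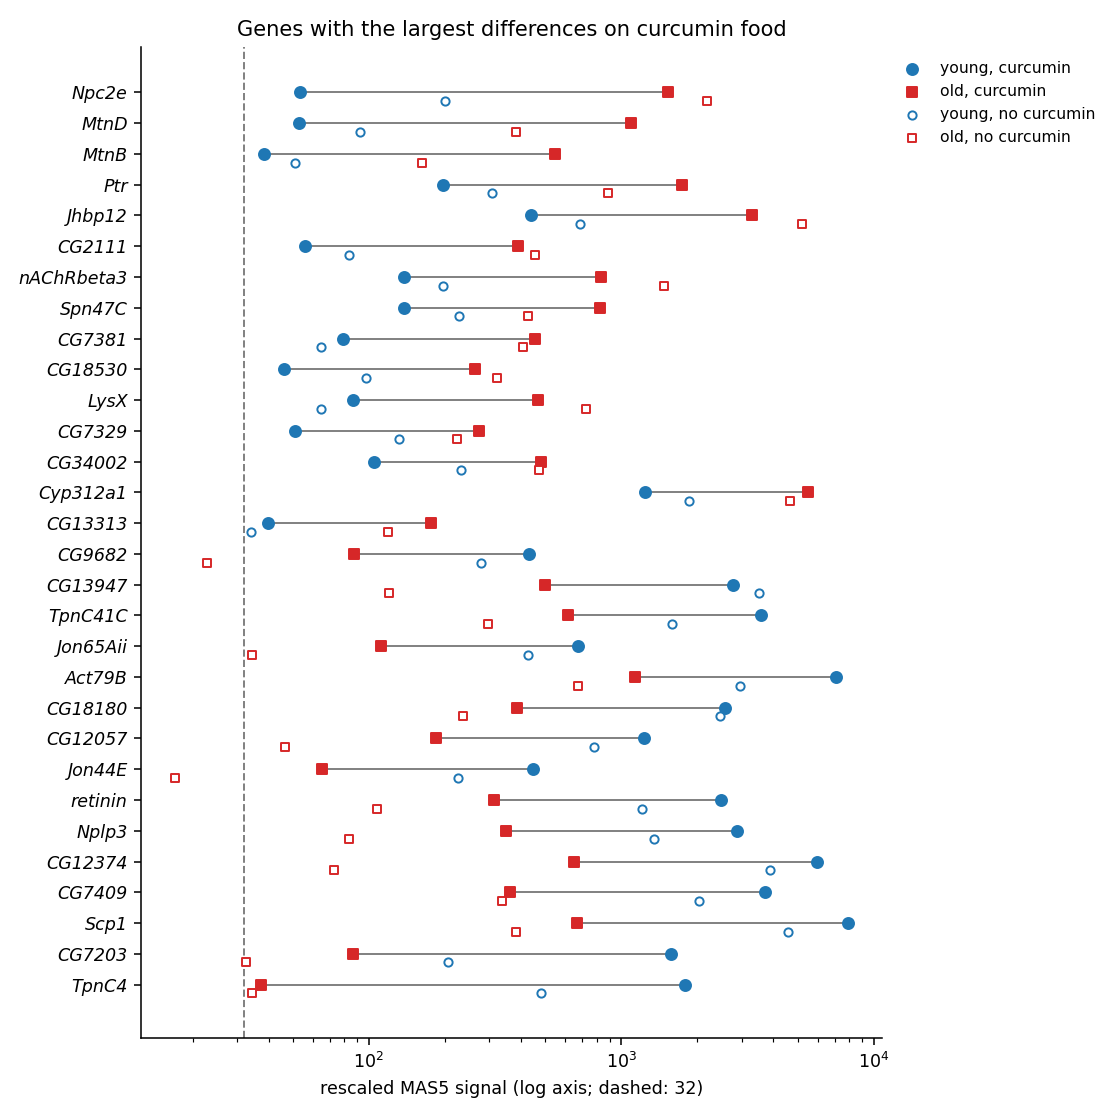
Rescaled MAS5 signal (log axis) of the 15 genes most higher and the 15 most lower in old flies on curcumin food among genes measured on both arrays, with filled symbols for the curcumin pools, open symbols for the pools without curcumin and a dashed line at 32. For every gene shown the open symbols are ordered by age in the same way as the filled ones, as for Npc2e and TpnC4.

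Serpins, which inhibit serine proteases, had 3 of 25 genes at least 2-fold higher, Spn47C (137 and 823), Spn88Ea (473 and 1456) and Spn75F (675 and 1405), and 1 lower as a bound, Spn31A. Of all genes 2.91% were that much higher and 2.36% lower. Genes in the higher group whose files give them no name beyond a number included CG2111 (55.9 and 391), CG7381 (79.0 and 455), CG18530 (46.2 and 263), CG7329 (51.0 and 272), CG34002 (105 and 482) and CG13313 (39.8 and 177). The largest upward bounds were CG10505, at least 5.01-fold (25.6 and 160), and Ugt37C2, at least 4.07-fold. CG2983, CG11131, CG14118, CG6933, CG16995 and CG14695 followed at 2.84-fold to 3.28-fold or more, and all 6 were under 2-fold with the limit set at log2 6. CG-numbered genes made up 35.4% of the higher and 41.3% of the lower genes, beside 40.4% of all 8717.

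Genes of the secretory pathway were higher, in lists that were assembled after the values were seen and therefore describe and do not test. Of 51 genes of ER entry, folding and Golgi transport 15 were higher by 2-fold or more, beside 2.91% of all genes, and 0 lower. Above 0 were 47 of the 51, and their median was 0.55. Ugalt, which carries UDP-galactose into the Golgi, read 142 in young and 604 in old flies (4.26-fold higher), and the ER translocation gene TRAM read 661 and 2586 (3.91-fold higher). Glg1, a Golgi membrane protein gene, read 63.5 and 206 (3.24-fold higher), and Qsox2, of the sulfhydryl oxidases that help form disulfide bonds, read 429 and 1188 (2.77-fold higher). The stress sensor kinases of the ER were among them, PEK at 1.42 and Ire1 at 1.25, as were Qsox1 (1.17), the cargo receptor gene ergic53 (1.14), the glucosidase gene GCS1 (1.13), the tether gene p115 (1.07), the receptor gene for signal recognition particles SrpRalpha (1.05) and the large-cargo export gene Tango1 (1.01). The ER chaperone gene Hsc70-3 was at 0.44. All 12 genes of the mucin-type glycosyltransferase list were above 0 (0.51 to 1.95) and 6 were at least 2-fold higher, with a median of 0.96. These enzymes attach the first sugars of mucins. Pgant4 read 128 and 492 (3.85-fold higher), Pgant1 read 120 and 387 (3.22-fold higher), and tgy, listed with them, read 78.3 and 264 (3.37-fold higher). Without curcumin the medians of both lists were also above 0, at 0.40 and 0.50. At least 2-fold higher there were 7 of 51 and 2 of 12, beside 354 of 8561 described genes.

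Surface receptors and matrix genes gave further higher members, and all lists of this paragraph but the basement membrane one were put together after the values were seen. The integrin genes scb (177 and 582, 3.29-fold) and mys (291 and 796, 2.73-fold) and the laminin chain gene wb (52.8 and 115.3, 2.19-fold) were the 3 of 14 past 2-fold. Pvr, the receptor tyrosine kinase related to the PDGF and VEGF receptors, read 212 and 509 (2.40-fold higher), and its ligand gene Pvf1 read 131 and 305 (2.34-fold). The ligand gene Pvf2 went from 18.8, below the limit, to 90.2, which is at least 2.82-fold higher. The polarity genes aPKC (58.1 and 132), baz (30.6 and 75.8, a bound) and the septate junction gene mesh (475 and 1111) were at least 2-fold higher among 19. The basement membrane list had 2 of 16 higher and 0 lower, with a median of 0.11. Mp, a collagen gene, was at 1.30 and the papilin gene Ppn at 1.24, whereas the perlecan gene trol was at -0.92. Transporter genes of organic solutes had 5 of 14 at least 2-fold higher, Oatp33Eb (154 and 433), the ABC transporter gene Mdr49 (675 and 1520), Orct2, Smvt and Oatp30B.

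Detoxification families were higher in a few members. UDP-glycosyltransferases, which add sugars to small lipophilic molecules, had 3 of 26 past 2-fold, Ugt37C2 (22.4 and 130), Ugt302K1 (38.6 and 99.7) and Ugt50B3 (104 and 247), with a median of 0.48, beside -0.01 without curcumin. Cytochrome P450 genes had 5 of 64 higher and 1 lower, beside 2.91% and 2.36% of all genes, and a median of 0.14. The largest was Cyp312a1 at 1240 and 5507, 4.44-fold higher, followed by Cyp28c1 (88.9 and 307) and Cyp6a16 (37.5 and 110), and Cyp6a20 was lower (243 and 112). Among 33 glutathione transferases GstD8 (45.5 and 168, 3.69-fold) and GstD2 (102 and 209, 2.04-fold) were past 2-fold and the median was 0.02. GstD2 was under 2-fold after centring (0.99) and with quantile normalization (0.98). Of the 21 antioxidant genes none was 2-fold higher and dj-1beta (306 and 147) was 2-fold lower. The mitochondrial superoxide dismutase gene Sod2 read 1831 and 1049 (-0.80), and the catalase gene Cat read 3658 and 3564.

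Immune genes split between blood cell genes and antimicrobial peptides. Of 18 hemocyte and thioester protein genes 3 were higher by 2-fold or more and 0 lower, beside 2.91% and 2.36% of all genes. Above 0 were 13 of the 18, and their median was 0.50. The scavenger receptor gene Sr-CI read 122 in young and 425 in old flies (3.47-fold higher), the thioester protein gene Tep3 read 152 and 346 (2.27-fold), and the clotting gene Hml read 156 and 328 (2.10-fold). The phagocytic receptor genes NimC1 (0.93), eater (0.94) and crq (0.90) were just under 2-fold, as was the Nimrod family gene NimB3 in the other direction (159 and 81.0, -0.97). Of the 7 antimicrobial peptide genes 0 were past 2-fold either way, AttD and edin as bounds, with a median of -0.59. Without curcumin all 7 were at least 2-fold higher with age, beside 354 of 8561 described genes, and the median was 2.45. DptB, a diptericin gene, read 238 and 158 here and 261 and 4087 without curcumin, and CecB, a cecropin gene, read 38.5 and 34.5 here and 30.1 and 174 there. In both genes the old array without curcumin read higher than the other 3. None of the 21 Toll and Imd signalling genes was past 2-fold (median 0.15), and PGRP-LB, which breaks down bacterial peptidoglycan, was the 1 of 6 recognition proteins past it (108 and 239). C-type lectins, chosen after the values were seen, had 4 of 9 higher and 2 lower. The higher ones were lectin-21Cb (57.4 and 172), lectin-24Db (105 and 248), lectin-46Ca and lectin-46Cb. Of these, lectin-46Ca and lectin-46Cb are also counted in the accessory gland list below.

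Eye, sensory and nerve genes gave a few large lower values within lists near 0. The corneal lens gene retinin read 2479 in young and 313 in old flies, 7.91-fold lower, and ninaD, a scavenger receptor gene for carotenoid uptake, read 220 and 28.5, at least 6.88-fold lower. They were the 2 of 23 eye genes past 2-fold. The neuropeptide-like precursor gene Nplp3 read 2885 and 349, 8.27-fold lower, and was the 1 of 20 neuropeptide precursors past it, with 5 of the 20 as bounds. The GABA receptor gene Rdl read 91.7 and 45.6 and was the 1 of 28 synaptic genes 2-fold lower, though under 2-fold without rescaling. Cadps was the 1 that was 2-fold higher, though its other probe set gave -0.12. Of 29 odorant-binding protein genes Obp84a (86.4 and 41.6) was 2-fold lower, with a median of -0.27. Without curcumin 12 of 28 were 2-fold lower, beside 751 of 8561 described genes, with a median of -0.72. The circadian clock list had 0 of 12 past 2-fold. Single lower genes in lists of this size are close to the 2.36% of all genes and describe only those genes.

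Most male reproductive genes differed little with age on this diet. For the accessory gland list the median was -0.04, which was 0.08 without rescaling and 0.11 with quantile normalization. Beside 2.91% of all genes, 4 of its 34 genes were at least 2-fold higher. They were lectin-46Cb (766 and 2291) and lectin-46Ca (381 and 980), which act in the sex peptide network, intr (119 and 297), of the same network, and Acp26Ab (866 and 1933). Of the other 30, 29 were within 2-fold, as with Acp98AB at 8103 and 8025, and Sfp65A read 47.8 and 12.4, a bound of at least 1.49-fold lower. Testis genes of meiotic arrest and sperm packaging had a median of -0.13 with 0 of 33 past 2-fold. Without curcumin the medians were -0.98 and -0.43, with 17 of 34 and 5 of 30 at least 2-fold lower, beside 751 of 8561 described genes. The andropin gene Anp, of the male ejaculatory duct, read 5634 and 2589 (2.18-fold lower), and under 2-fold with quantile normalization (-0.84).

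Genes often studied in ageing were mostly near 0. The insulin receptor gene InR read 127 in young and 233 in old flies (0.88) and the kinase gene Akt 182 and 329 (0.86), and 0 of 14 insulin and TOR genes were past 2-fold. The transcription factor gene foxo was at 0.16, the sirtuin gene Sirt1 at -0.15, the JNK gene bsk at 0.13 and the receptor gene mth at 0.05. The histone acetyltransferase gene mof read 32.3 and 78.4, 2.42-fold higher, close to the limit in young flies. Heat shock genes had a median of 0.0009, and their sign turned after centring (-0.04). Hsc70-1 was the 1 of 16 past 2-fold, on 1 of its 2 probe sets. All 8 chaperonin subunits were above 0 (0.18 to 0.67) and 0 were past 2-fold. Standard proteasome subunits (0.07 over 26), autophagy genes (0.02 over 20) and JNK genes (0.13 over 14) had 0 members past 2-fold. The DNA end-binding gene Irbp, which encodes the Ku70 protein, was the 1 of 20 repair genes past it (47.5 and 106). Thor and Sod1 were not analysed here.

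**Figure D5:**
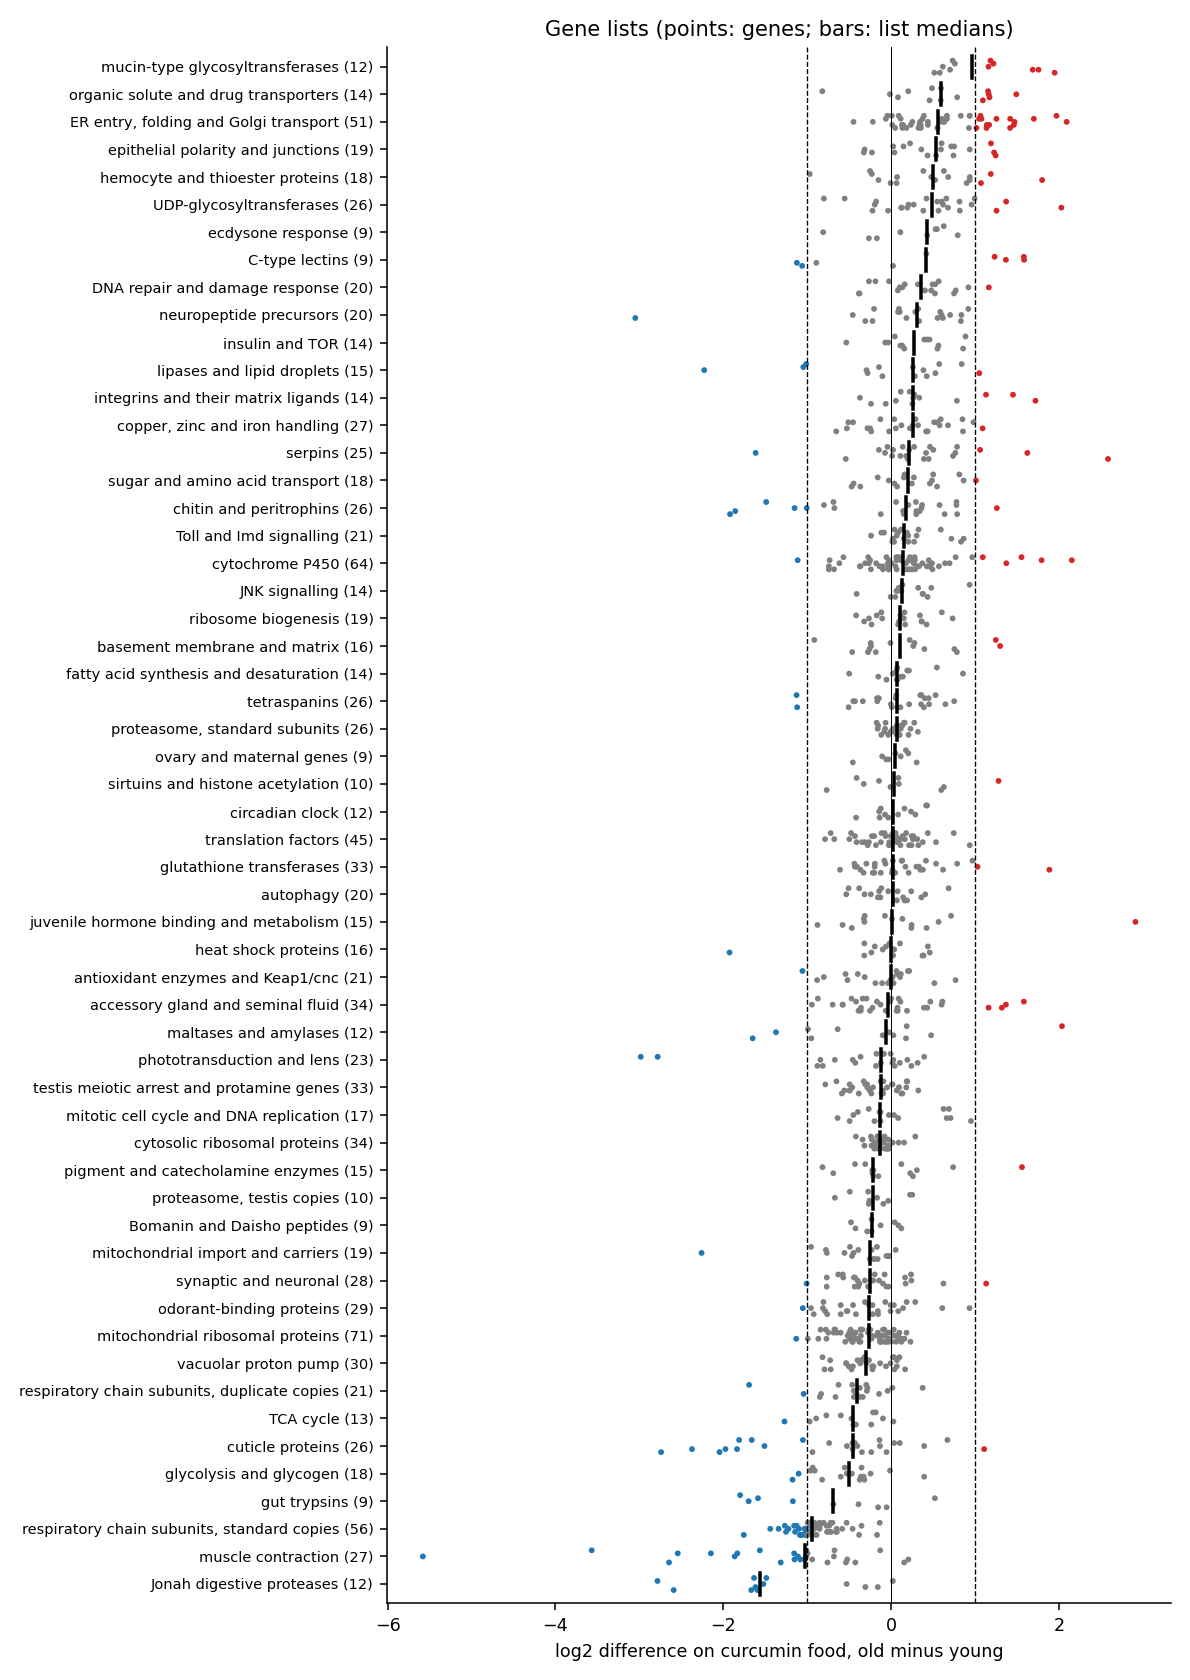
Log2 difference between old and young flies on curcumin food for each gene (points) of the lists with 9 or more described genes, with the list median as a black bar and dashed lines at 2-fold; red and blue points are at least 2-fold higher and lower. Medians run from -1.56 for the Jonah proteases to 0.96 for the mucin-type glycosyltransferases, and most lists lie within 0.5 of 0.

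Neighbouring genes sometimes shared a direction. Of 251 higher genes that could be placed, 31 (12.4%) had an adjacent described gene that was also at least 2-fold higher, and of 203 lower genes 41 (20.2%) had one that was also lower, against 5.69% and 4.54% of all placed genes with such a neighbour. Runs of 3 adjacent genes were found 4 times. Beside the Jonah and mannosidase runs, CG7214 (345 and 14.9, at least 10.8-fold lower), ATPsynGL and CG7203 (1567 and 86.1, 18.2-fold lower) formed one. ATPsynGL was under 2-fold without rescaling, so this run depends on the scaling. The only upward run held CG7298 (85.8 and 281), CG7017 (47.7 and 190) and CG6933 (25.8 and 100.3, a bound). Neighbours are often copies of one gene, and shared probe signal was not tested.

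Genes given by number and lower in old flies were led by CG7203 and CG17192, which read 532 and 15.6, at least 16.6-fold lower. CG7409 read 3713 and 363 (10.2-fold lower), CG12374 read 5975 and 651 (9.18-fold), CG12057 read 1235 and 184 (6.71-fold), CG18180 read 2580 and 385 (6.70-fold), CG13947 read 2765 and 499 (5.54-fold) and CG9682 read 433 and 87.4 (4.95-fold). Further bounds were CG13026, at least 5.97-fold, CG18179, at least 4.53-fold, and Nna1, at least 4.09-fold lower. CG13026, CG7214, Cpr92F, Vajk2 and Vajk3 were below the limit on both arrays without curcumin, and thus had no age difference to set beside these.

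The direction with age was mostly the same without curcumin, in a pair that shares no array with this one. Of the 254 genes at least 2-fold higher here, 114 (44.9%, or 32.2% of the 354 higher there among the same genes) were also at least 2-fold higher without curcumin, 129 had the same sign under 2-fold, 9 the opposite sign and 2 no value. Of the 206 lower genes, 119 (57.8%, or 15.8% of the 751 lower there) were also at least 2-fold lower, 75 had the same sign, 5 the opposite and 7 no value. With signals under 32 counted as 32, no gene passed 2-fold in opposite directions on the 2 diets. For edin this rested on the limit, as it read 51.0 and 15.2 with curcumin and 12.4 and 2131 without it. The 254 genes had a median of 1.24 here and 0.96 without curcumin, and the 206 a median of -1.29 here and -1.31. They were picked on the curcumin values, so only the values without curcumin are free of that choice.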

How the data were processed

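Total RNA was hybridised to 1 array per pool, 4 in all. The deposited values are log2 signals that the authors made with MAS5, per the submitters' processing notes, which give no version. They ran from -4.67 to 13.4. Signals on the linear scale were multiplied to a shared 2% trimmed mean (by 0.991 and 0.975 for young and old flies without curcumin, and by 1.06 and 0.976 with it), floored at 32 and returned to log2. Of the 13647 probe sets with 1 gene in the platform table, 13544 were renamed by gene number to the RefSeq table of assembly Release 6, which also gave the neighbours. A gene was represented by its described probe set with the highest mean log2 over the 4 arrays. Differences past 2-fold were counted without a test, since each group has 1 array. The labels do not say whether the pools came from separate cultures. Planned shares by chromosome arm were not computed, since the array's genome build is not named.

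Named genes were the 15 largest differences each way, the 8 largest bounds each way, up to 4 members per list (all members of lists of 6 or fewer), 9 genes common in ageing studies and the genes in runs of 3. Further list members are examples chosen after their values were seen. Members and lists were chosen with earlier results of these data known, and 10 of the 73 lists after the values were seen. Counting was tested on simulated data with large changes in bright probe sets and little noise. It was not tested for genes near 2-fold or near the limit. The tools were numpy 2.4.6, pandas 2.3.3 and matplotlib 3.10.9 under Python 3.11.15. Alternatives were 3 other scalings, 4 other treatments of low values and the mean over probe sets.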

Additional observations from a re-analysis of the deposited data

Results flagged for a closer look

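Some genes had opposite signs of the age difference on the 2 diets, with at least 2-fold on one diet and at least 1.2-fold on the other. Each difference rests on 1 array per pool, and the difference between the diets was not tested. The drosomycin gene Drs was at -0.77 with curcumin (1501 in young and 880 in old flies) and 1.75 without it (1330 and 4462). The metchnikowin gene Mtk was at -0.69 with curcumin (1373 and 849) and 1.99 without it (1544 and 6132). The infection-induced gene edin was at -0.67 with curcumin (51.0 and below the limit) and 6.06 without it (below the limit and 2131), both as bounds. The median of the 7 antimicrobial peptides was -0.59 with curcumin and 2.45 without it. The stress peptide gene TotC was at -1.14 with curcumin (777 and 352) and 0.73 without it (2879 and 4770), so its young signals differed as well. NimB3, of the Nimrod family of hemocyte proteins, was at -0.97 with curcumin (159 and 81.0) and 1.12 without it (126 and 273). The metallothionein gene MtnC was at 1.32 with curcumin (298 and 742) and -0.88 without it (481 and 261), and was the only one of these that was higher on curcumin food.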

How the results depend on the processing

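The counts of 254 genes higher and 206 lower stayed within 1.5 times of these values under 7 of 8 alternatives, with 194 to 352 higher and 146 to 274 lower. The exception was a pseudocount of 32 in place of the limit, with 156 higher and 152 lower, since it shrinks the folds of dim genes. The share of higher genes among those past 2-fold ran from 49.2% to 70.7% and depended on scaling. The median of the lipase and lipid droplet list turned from 0.26 to -0.036 with the mean over probe sets, and that of the Bomanin and Daisho peptides from -0.23 to 0.0076 with quantile normalization; the cause was not tested. Among the 315 named genes none of those past 2-fold turned its sign, and 1 to 25 dropped under 2-fold under each of 6 of the alternatives, at most with the pseudocount and with the limit at log2 6 (23). Values near the limit depended on it: the cuticle median was -0.91 without a limit, the metallothionein median 2.21 with the limit at log2 6 and 2.14 with the pseudocount (2.58 otherwise), and the log2 differences of Npc2e and MtnD 4.19 and 3.74 with the pseudocount (4.84 and 4.38 otherwise). Higher genes that fell under 2-fold with the limit at log2 6 included Cyp6a16 (0.78), Ugt302K1 (0.64), Pvf2 (0.49), mof (0.29) and baz (0.24), and lower ones Obp84a (-0.43) and Lip3 (-0.18). No paired analysis was possible because each group has 1 array, and for the same reason no array could be left out. Signal over background limits values near 32.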

Other observations

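Long non-coding RNA genes were few among those described, at 16, with 3 past 2-fold upward and 2 downward on curcumin food. Of all genes 2.91% and 2.36% were past it, and so small a list describes only those genes. The set-domain genes SmydA-7 (99.7 and 41.8), SmydA-1 (84.4 and 41.8) and SmydA-2 (69.8 and below the limit, a bound) were at least 2-fold lower, out of 7 described genes of this family. It was picked out after its values were seen, and 3 of its 7 folds are bounds that enter through the young array only, so their direction was fixed by how members were chosen. Ance-3, of the angiotensin-converting enzyme family, was higher on both of its probe sets, at 2.54 and 2.10, and was picked after its values were seen. Phm, which encodes an enzyme of neuropeptide amidation, was likewise higher on both, at 1.19 and 1.10. The laccase gene stw, of cuticle hardening, read 75.4 in young and 222 in old flies, 2.94-fold higher.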
